A study of Mus musculus with 4 samples.

Results

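The genes described here encode the translation initiation factors (eIF) and elongation factors (eEF) of the mouse, taken as every row of the deposited count tables whose symbol begins with Eif or Eef followed by a digit. The rule found 64 genes of 23282 rows, of which 55 were Eif rows and 9 were Eef rows. It used the symbol alone and no measured value. RNA was counted in explant cultures of dorsal root ganglia, which hold sensory neurons, Schwann cells, satellite glia and fibroblasts. The ganglia came from C57BL/6 embryos at embryonic day 13, grew on Matrigel and were moved from growth medium to myelination medium at day in vitro (DIV) 8. ES cultures received electrical stimulation at 20 Hz and 50 mV/mm for 1 h at 10 DIV, control cultures received none, and RNA was harvested at 11 or 19 DIV. Each of the 4 groups (control 11 DIV, ES 11 DIV, control 19 DIV, ES 19 DIV) was 1 library made from 3 pooled explants, and with no replicates the differences below have no check of that kind. All groups shared the strain, the medium change and the coating, and the labels name no transgene.

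Initiation begins when eIF2, bound to GTP and the initiator tRNA, joins the small ribosomal subunit together with eIF1, eIF1A, eIF3 and eIF5. The eIF4F complex brings the mRNA: eIF4E binds the cap, eIF4G is the scaffold and eIF4A the helicase, while the 4E-BP proteins hold eIF4E away from eIF4G. In elongation eEF1A delivers aminoacyl-tRNAs, the eEF1B subunits recharge eEF1A with GTP, and eEF2 moves the ribosome along. Sensory neurons translate part of their mRNA in axons, and Schwann cells make large amounts of myelin protein. Many elongation factor and eIF3 mRNAs begin with a 5′ terminal oligopyrimidine (TOP) tract, through which mTORC1 signalling controls their translation.

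Levels are read counts per library size (CPM) after TMM scaling, which sets the libraries to a common effective size, and values are given in the order control 11 DIV, ES 11 DIV, control 19 DIV and ES 19 DIV unless stated. The libraries held 6197537, 5782834, 6730614 and 7830950 reads. By read counting alone a count of 0 allows 3 reads, which corresponded to 0.376 to 0.518 CPM. The counts were far more scattered between libraries than read counting alone gives: for genes averaging 500 to 3000 reads, the squared differences were 208.0 to 258.4 times the counting error. Ratios therefore carry a spread-adjusted 95% interval, an exact Clopper-Pearson interval on counts divided by that factor. It describes the 2 libraries compared, not the variation between cultures. The factor comes from libraries of different conditions and so holds real differences as well as scatter. Of the 64 genes, 56 had reads in every library, 7 had 0 reads in at least 1 library and 1, Eif4e1b, a germline relative of Eif4e, had 0 reads in all 4. An average of 10 reads or more was reached by 62 of them.

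The markers of the ganglion were present and shifted between the libraries, which touches every result below. The 10 sensory neuron markers summed to 2990, 3925, 3867 and 1453 CPM, and Isl1 and Snap25 were at 0 in ES 19 DIV, as was Pou4f1 in control 11 DIV. The 8 Schwann cell and satellite glia markers summed to 4335, 7099, 10506 and 8655 CPM, with Fabp7 and Erbb3 at or near 0 throughout. The 6 fibroblast markers summed to 4746, 6444, 9045 and 12429 CPM. Macrophage markers stayed between 25.2 and 142.8 CPM with Aif1 at 0, endothelial markers between 25.2 and 48.3 CPM with Pecam1 and Tek at 0, and of 5 muscle markers only Acta1 had reads. The leading neuron marker Prph had 3866, 7061, 6242 and 2717 reads. In these pooled explants, fewer cells of a type and less RNA per cell cannot be told apart, and the part of this shift in the results was not tested.

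The factor genes together took 1.57%, 1.47%, 1.35% and 1.26% of all reads. Control 11 DIV had the highest summed level of both families. Initiation factors summed to 10423, 8521, 8435 and 7671 CPM, and elongation factors to 6380, 5791, 4735 and 4717 CPM. Between ES and control at 11 DIV the initiation sum had a ratio of 0.817 (spread-adjusted 95% interval 0.686 to 0.973) and the elongation sum 0.908 (0.730 to 1.13). At 19 DIV the ES to control ratios were 0.910 (0.761 to 1.09) for initiation and 0.996 (0.789 to 1.26) for elongation. From 11 to 19 DIV in control cultures the ratios were 0.809 (0.678 to 0.965) and 0.742 (0.588 to 0.936), and in ES cultures 0.900 (0.742 to 1.09) and 0.815 (0.639 to 1.04). The 3 intervals that excluded equality all set another library against control 11 DIV, and all 3 included equality when libraries were scaled by their total counts, which gave 0.896 (0.750 to 1.07), 0.887 (0.741 to 1.06) and 0.813 (0.642 to 1.03). The comparisons share that library, which had the highest share of reads on the ribosomal RNA precursor Rn45s (5.18%, against 2.65% to 3.08% in the others). With scaling factors computed without Rn45s the 3 ratios were 0.818, 0.809 and 0.742, and their intervals still excluded equality.

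**Figure D1:**
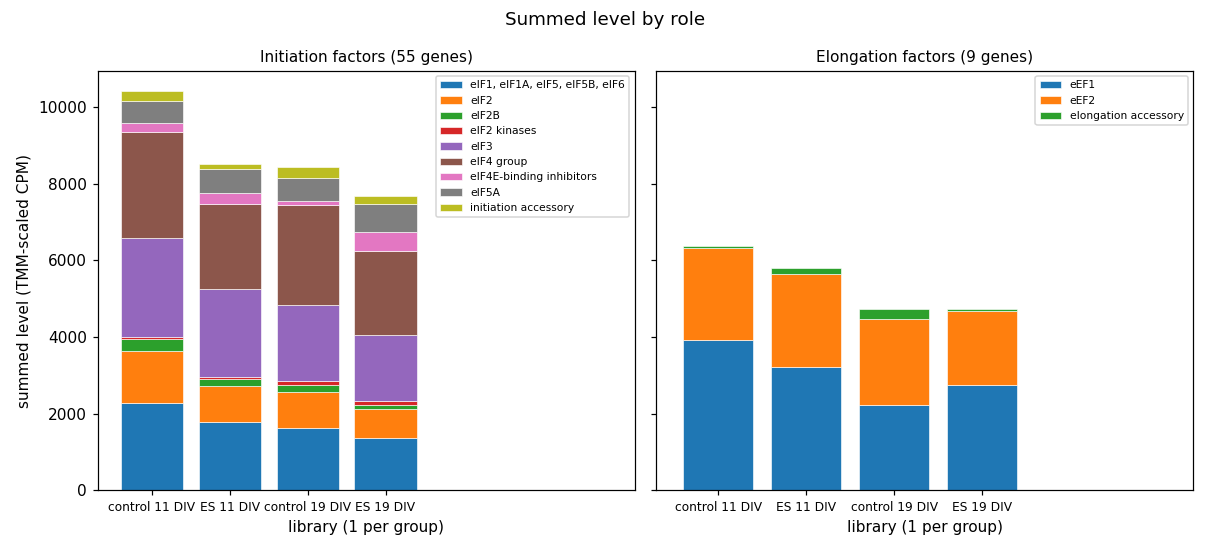
Summed level (TMM-scaled CPM, linear axis from 0) of the 55 initiation factor genes (left) and the 9 elongation factor genes (right) in the 4 libraries, stacked by role, with 1 library per bar. Initiation ran from 10423 CPM in control 11 DIV to 7671 CPM in ES 19 DIV, and the eEF1 block of the elongation bars from 3923 CPM in control 11 DIV to 2223 CPM in control 19 DIV.

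The median factor gene lay near or below the median gene. For the 62 members that averaged 10 reads or more, the median log2 difference of initiation factors was −0.25 between ES and control at 11 DIV, −0.39 at 19 DIV, −0.25 from 11 to 19 DIV in control and −0.31 in ES cultures. For elongation factors the medians were 0.01, 0.03, −0.74 and −0.46. The median over all genes was 0.00 in each comparison. The highest level of a gene fell in control 11 DIV for 26 of 62 members (41.9%), against 25.4% of all 11665 genes at that depth. At an average of 2000 reads or more the count was 6 of 9 members, against 39.7% of 564 genes. The ratio of the highest to the lowest library had a median of 3.08 over the 62 members and 17.7 over the 11665 genes. At an average of 500 reads or more it was 2.13 over 33 members and 2.56 over 2963 genes, a smaller gap than at the lower depth.

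**Figure D2:**
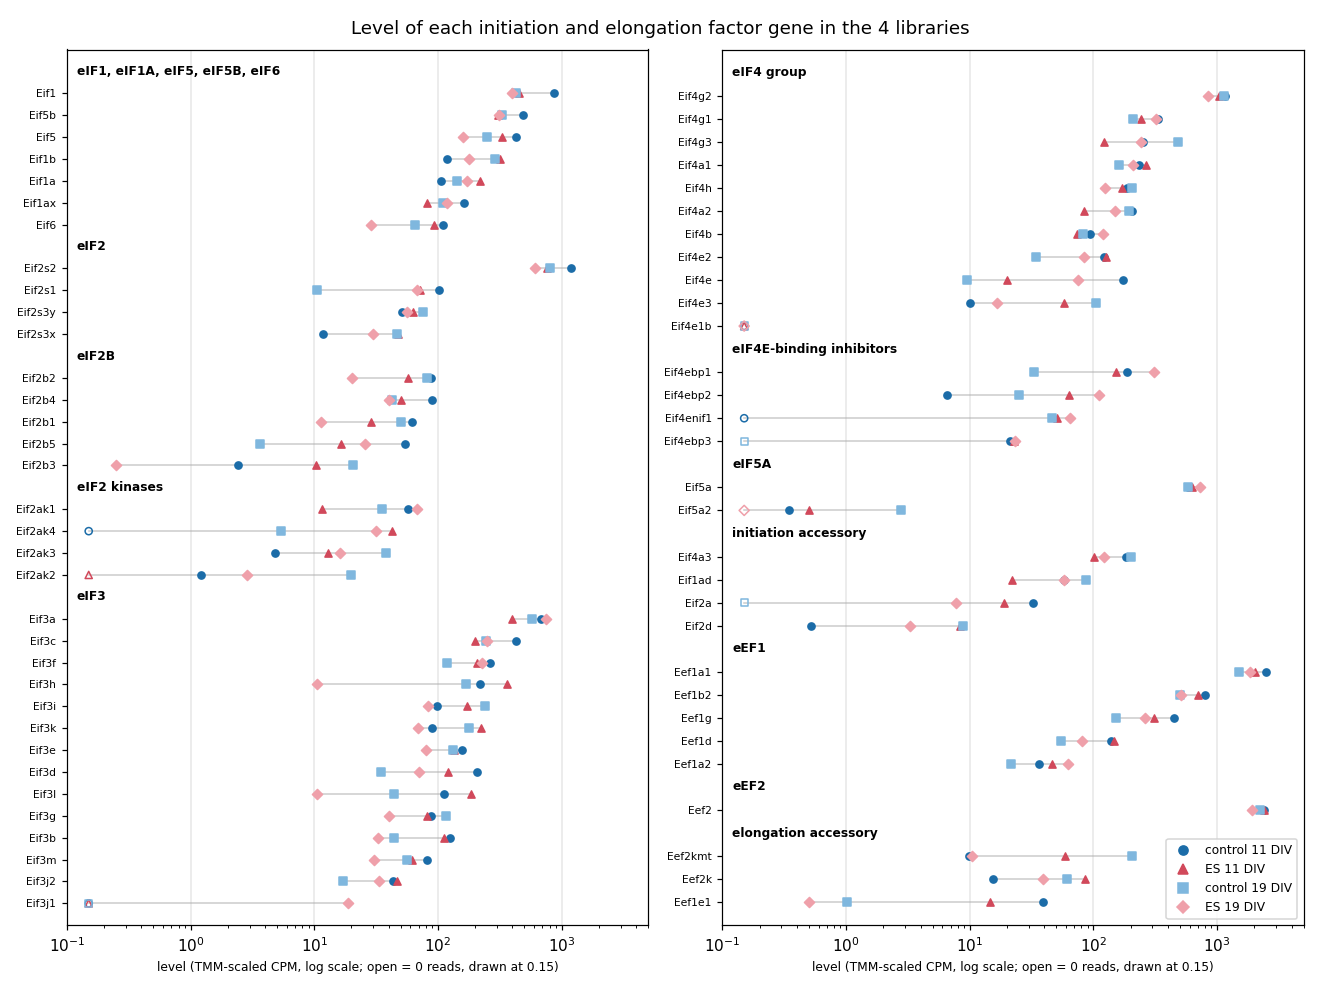
Level of each of the 64 genes (TMM-scaled CPM, log axis) in the 4 libraries, grouped by role; open symbols at 0.15 stand for 0 reads. The points of Eef2, Eif4g2 and Eif5a lie close together, with a highest to lowest ratio of 1.26, 1.37 and 1.27, while those of Eif4e (18.3) and Eif3h (34.4) are spread over more than a decade.

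A member counted as past the size rule when its 2 libraries differed at least 2-fold, its counting interval excluded equality and the higher library had at least 50 reads. Between ES and control at 11 DIV, 12 of 59 members that could be called were higher, against 28.9% of the 9834 genes that could be, and 9 were lower, against 29.6%. At 19 DIV, 12 of 61 were higher (all genes 29.4%) and 14 lower (31.3%). From 11 to 19 DIV in control cultures, 13 of 60 were higher (30.9%) and 17 lower (29.8%). In ES cultures, 6 of 60 were higher (30.9%) and 17 lower (30.5%). The members' shares ran from 10% to 28.3%. The 28.3% reached by lower members from 11 to 19 DIV in both treatments was close to the share of all genes.

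The spread-adjusted rule, which used the same fold and read limits with a 99% interval after division by the spread factor, took 1 member. Eif3h had 1264, 2143, 1166 and 84 reads and was lower at 19 than at 11 DIV in ES cultures, where 0.263% of all genes were called lower and 0.162% higher. No member was called between ES and control at 11 DIV, where 0.102% of all genes were higher and 0.214% lower. None was called at 19 DIV, where 0.13% were higher and 0.13% lower. None was called from 11 to 19 DIV in control cultures, where 0.16% were higher and 0.459% lower.

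**Figure D3:**
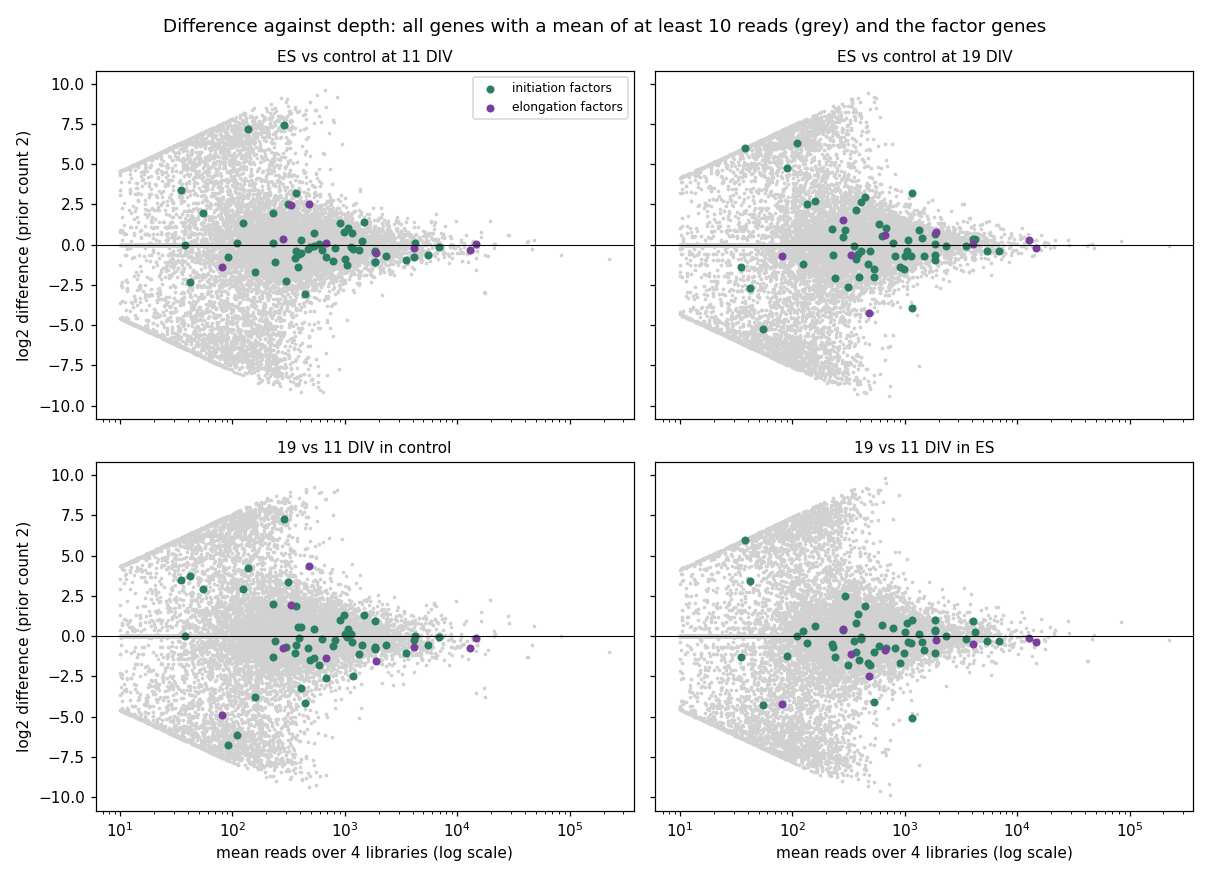
Log2 difference (prior count 2) against mean reads over the 4 libraries (log axis) for all genes averaging 10 reads or more (grey) and for the initiation (green) and elongation (purple) factors, in 1 panel per comparison. The grey cloud narrows with depth, and the members lie within it in each panel except for Eif3h at its lower edge in the 2 panels that set ES 19 DIV against another library.

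The main test across all 4 libraries, edgeR's quasi-likelihood fit with ES and day as additive terms and 1 residual degree of freedom, tested 61 members among 10050 genes. It called 0 members and 0% of all genes for ES, and 0 members and 0% for day, at a Benjamini-Hochberg adjusted p of 0.05. At an unadjusted p under 0.05 there were 109 genes for ES and 202 for day, with 0 members among each. limma with voom also called 0 genes, and DESeq2 called 210 genes higher and 293 lower for ES and 420 higher and 427 lower for day, which was 5.21% of 9660 genes and 8.59% of 9855. Of the 61 members it called 2 (3.28%) for ES and 3 (4.92%) for day. Those members were Eif4ebp2 (higher) and Eif4g3 (lower) with ES, and Eif4g3 (higher), Eif3l (lower) and Eif5 (lower) with day. Eif5 was named after its value was seen.

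Among the elongation factors, Eef1a1, which encodes the widely expressed form of eEF1A, had 2503, 2013, 1493 and 1843 CPM (14500, 11922, 10293 and 14720 reads). It was highest in control 11 DIV and lowest in control 19 DIV. The ratio from 11 to 19 DIV was 0.597 in control cultures (0.397 to 0.889) and 0.916 in ES cultures (0.610 to 1.38), and the difference between these ratios was not tested. Eef1a1 (chromosome 9, 78478449 to 78489151, minus strand, GRCm38) has processed copies in the genome, so its reads could be shared with them. Eef1a2, the form of adult neurons and muscle, had 36.3, 46.3, 21.6 and 62.2 CPM. It made up 1.43%, 2.25%, 1.43% and 3.27% of the reads of the pair, and its ratio of 2.88 between ES and control at 19 DIV rested on 149 and 497 reads with an interval that spanned equality.

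The exchange factor subunits followed a similar order to Eef1a1 in the control libraries. Eef1b2 had 798.5, 703.2, 500.9 and 512.4 CPM. Eef1g had 445.5, 311.8, 152.3 and 259.7 CPM, a ratio of 0.342 (0.0880 to 1.09) from 11 to 19 DIV in control cultures. Eef1d had 139.3, 146.4, 54.4 and 80.8 CPM, a ratio of 0.391 (0.0246 to 3.29) in that comparison. All 5 eEF1 genes were lower at 19 than at 11 DIV in control cultures. Of the 11665 genes averaging 10 reads or more, not matched for depth, 5475 were lower. Of the 5, 2 were past the size rule (all genes 29.8%). The sum of the 5 went from 3923 to 2223 CPM, a ratio of 0.567 (0.409 to 0.781). At 19 DIV all 5 were higher in ES than in control, as were 5232 of the 11665 genes. The ratio of the sums was 1.24 (0.895 to 1.73) and did not exclude equality. Exons of Eef1b2 overlap Ndufs1 and those of Eef1d overlap Naprt, and whether the counting used strand is not given in the sources used here.

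Eef2, the translocation factor, had the smallest ratio of highest to lowest library (1.26) of the 56 genes with reads in all 4. It had 2393, 2413, 2244 and 1909 CPM, from 13862 to 15470 reads, and its largest departure from equality was a ratio of 0.791 (0.539 to 1.16) from 11 to 19 DIV in ES cultures. Eef2k, the kinase that phosphorylates and slows eEF2, had 89, 503, 419 and 311 reads and was lowest in control 11 DIV. The ES to control ratio of Eef2k was 5.53 at 11 DIV and 0.641 at 19 DIV, both with intervals that spanned equality. Eef2kmt, which methylates eEF2, had 57, 347, 1422 and 83 reads (9.84, 58.6, 206.3 and 10.4 CPM). Its 19 DIV libraries differed 19.8-fold, lower in ES, with an interval whose upper end was 0.888. The exons of Eef2kmt overlap those of Alg1, which had 56, 217, 597 and 1 reads, in the same order as Eef2kmt except between control 11 DIV and ES 19 DIV. Eef1e1, a subunit of the aminoacyl-tRNA synthetase complex that is named with the elongation factors, had 228, 87, 7 and 4 reads.

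**Figure D4:**
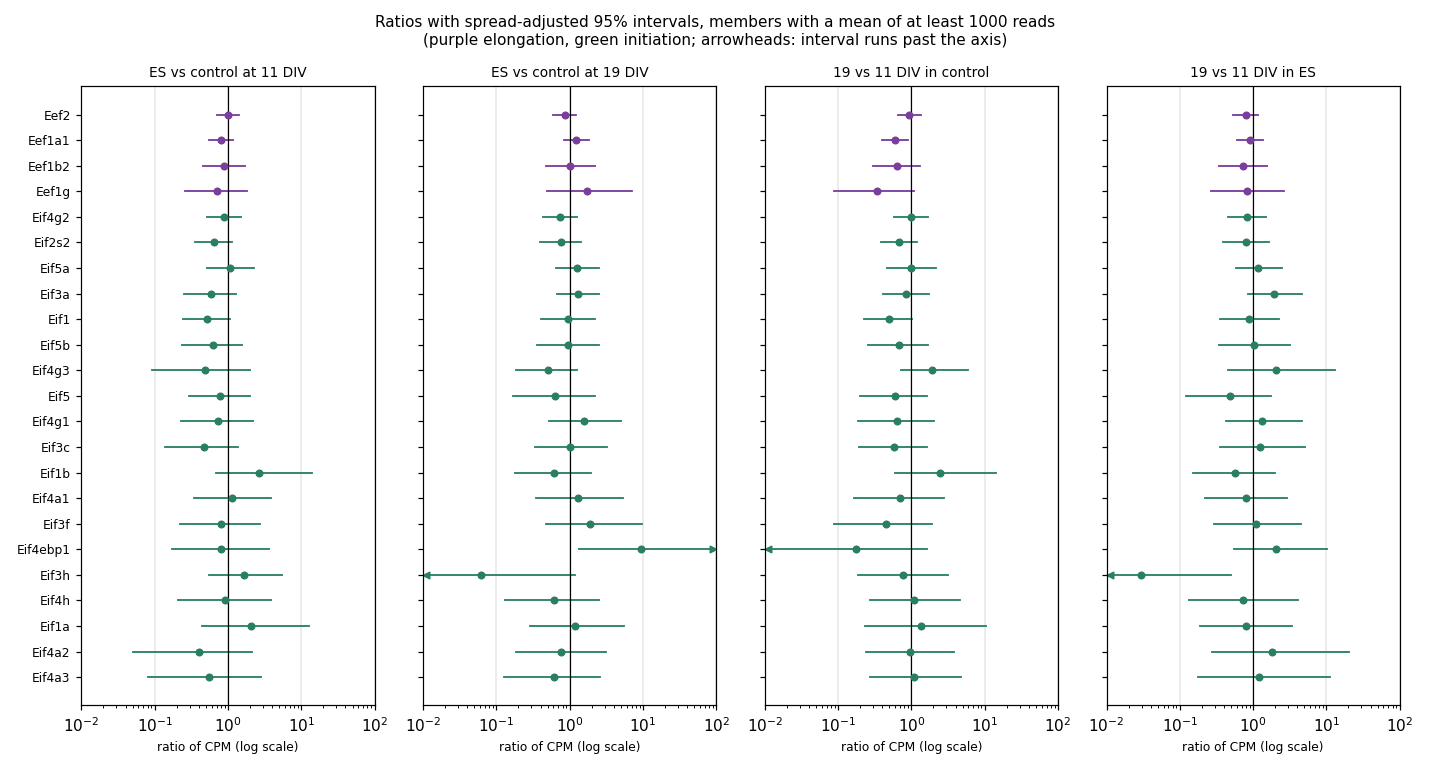
Ratio of CPM (log axis) with spread-adjusted 95% intervals for the 23 members that averaged 1000 reads or more (4 elongation in purple, 19 initiation in green) in the 4 comparisons; arrowheads mark intervals that run past the axis. Only Eif4ebp1 in ES against control at 19 DIV, Eef1a1 from 11 to 19 DIV in control and Eif3h from 11 to 19 DIV in ES exclude a ratio of 1.

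The list of 10 members known for a TOP tract holds 5 elongation factor genes (Eef1a1, Eef1b2, Eef1d, Eef1g and Eef2), 4 eIF3 genes (Eif3a, Eif3e, Eif3f and Eif3h) and Eif4b. Their sum was 7694, 6763, 5530 and 5793 CPM. From 11 to 19 DIV in control cultures 10 of 10 were below equality, against 5475 of the 11665 genes averaging 10 reads or more. Those genes are not matched for depth, as the least read of the 10, Eif4b, averaged 625.5 reads. Control 11 DIV was highest for 39.7% of genes averaging 2000 reads or more, against 25.4% at 10 or more. The median log2 difference of the 10 members was −0.52, and 3 were past the size rule (all genes 29.8%). The ratio of the sums was 0.719 (0.581 to 0.889), or 0.788 (0.634 to 0.977) under total-count scaling. Eef1a1, Eef1b2, Eef1d and Eef1g are also part of the eEF1 sum above, so the 2 sums are not separate results. The 54 members outside the list had a ratio of 0.839 (0.695 to 1.01), a median of −0.20, and 30 of 52 below equality. In ES cultures the TOP list had a ratio of 0.857 (0.687 to 1.07). The cytosolic ribosomal protein genes, which are TOP mRNAs too, summed to 50623, 38142, 30352 and 30858 CPM. Their ratio was 0.600 (0.550 to 0.653) from 11 to 19 DIV in control cultures and 0.753 (0.695 to 0.816) between ES and control at 11 DIV. Both of these set a library against control 11 DIV. In the comparisons without that library, the ratio was 0.809 (0.737 to 0.888) from 11 to 19 DIV in ES cultures. Between ES and control at 19 DIV it was 1.02 (0.929 to 1.11). The 6 TOP genes outside the families had a ratio of the sums of 0.865 (0.724 to 1.03) from 11 to 19 DIV in control cultures. That interval included equality, and 4 of the genes were below equality and 2 above. Among them Tpt1 was called lower by the spread-adjusted rule in that comparison (all genes 0.459%), with 23957 and 13290 reads. Vim, also on the TOP list of genes outside the families, had 2827, 4250, 4961 and 4935 CPM and ran the other way.

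Start-site sequences were available in RefSeq (GRCm38.p6) for 6 of the 10 TOP members. They are shown because the list is named for a tract at the start of the mRNA. Each runs from 45 bases before the annotated start through 30 bases from it. In the first 3 the capitals mark the longest run of C and T that starts with a C, found by a pattern search. Where runs were equally long, the first was taken.
Eef1a1: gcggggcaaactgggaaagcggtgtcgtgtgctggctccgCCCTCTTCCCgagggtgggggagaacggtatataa
Eif3f: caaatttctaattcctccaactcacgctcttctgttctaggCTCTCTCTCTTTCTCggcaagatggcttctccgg
Eif4b: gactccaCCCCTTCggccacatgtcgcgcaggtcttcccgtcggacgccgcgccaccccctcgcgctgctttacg
In the other 3 the capitals mark, from left to right, an E-box, a TATA box and a cAMP response element in Eef2, an E-box in Eif3a and an ETS site in Eef1b2.
Eef2: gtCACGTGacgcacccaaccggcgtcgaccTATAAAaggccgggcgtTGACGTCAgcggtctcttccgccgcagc
Eif3a: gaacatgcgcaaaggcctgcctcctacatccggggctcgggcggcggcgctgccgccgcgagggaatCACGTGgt
Eef1b2: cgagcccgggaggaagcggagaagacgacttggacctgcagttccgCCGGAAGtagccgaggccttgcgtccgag
The windows lie at chr9:78481695-78481769 (minus) for Eef1a1, chr7:108934370-108934444 (plus) for Eif3f, chr15:102073728-102073802 (plus) for Eif4b, chr10:81176586-81176660 (plus) for Eef2, chr19:60790664-60790738 (minus) for Eif3a and chr1:63176786-63176860 (plus) for Eef1b2. The longest such run spanned the annotated start in 2 of the 6, with 15 bases in Eif3f and 10 in Eef1a1. In the other 4 it did not span that start, from which positions are counted. It had 7 bases from position −38 in Eif4b, 7 from 16 in Eef2, 6 from −26 in Eif3a and 4 from 18 in Eef1b2. The Eef2 run follows a T, and Eif4b has another run of 7 bases after the annotated start. Whether the annotated starts are where the mRNAs begin was not tested, so no run here is shown to be the TOP tract.

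The 4 motifs were searched on both strands in 300-base windows around 65 annotated starts of 50 members and in all 32851 windows kept. Windows of another length were left out, as were those on chromosome 18, where Eif1a, Eif3j2 and Eif4ebp3 lie. The E-box, searched as CACGTG, was in 14 member windows (21.5%, 12 genes), against 7.15% of all windows. The ETS site, searched as CCGGAAG, was in 20 member windows (30.8%, 17 genes), against 8.86%. The TATA box, searched as TATAAA, was in 5 (7.69%), against 13.6%. The cAMP response element, searched as TGACGTCA, was in 1, that of Eef2, against 1.79%. Each motif was counted whether or not it overlapped another. Some windows belong to the same gene and overlap, and a match is only a run of letters.

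Among the genes that act on the small subunit, Eif1, which guards start codon choice, had 875.4, 451.0, 426.8 and 400.4 CPM. Control 11 DIV stood above the other 3 libraries. The ratio of ES 11 DIV to it was 0.515 (0.240 to 1.05) and that of control 19 DIV 0.488 (0.225 to 1.01). Its near copy Eif1b had 118.9, 315.2, 290.4 and 177.1 CPM and was lowest where Eif1 was highest. Eif1b made up 12%, 41.1%, 40.5% and 30.7% of the reads of the pair, and reads shared by the 2 genes could not be told apart. Eif5b, which joins the ribosomal subunits, had 487.8, 304.2, 327.4 and 309.3 CPM. Eif5, the GTPase activator of eIF2, had 427.2, 328.8, 251.4 and 159.2 CPM and was lower at 19 DIV in both treatments. For day, edgeR's quasi-likelihood test gave Eif5 a log2 change of −0.91 with an adjusted p of 1, and DESeq2 an adjusted p of 0.0411. Eif6, which keeps the subunits apart, had 110.8, 93.0, 65.6 and 28.7 CPM. Its ratio between 11 and 19 DIV in ES cultures was 0.308, with an interval that spanned equality.

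Eif5a, the hypusine-bearing factor that helps both elongation and termination, had 578.6, 622.6, 577.5 and 734.6 CPM, and its ratios lay between 0.998 and 1.27 with intervals that included equality. Eif5a2 had at most 19 reads in any library.

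The eIF2 subunits differed among themselves. Eif2s2, the beta subunit, had 1185, 757.9, 806.5 and 605.0 CPM, highest in control 11 DIV. Eif2s1, the alpha subunit that the stress kinases phosphorylate, had 591, 422, 73 and 540 reads, lowest in control 19 DIV. Its ratio was 0.104 from 11 to 19 DIV in control cultures and 6.39 between ES and control at 19 DIV. Both intervals spanned equality. Eif2s3x had 68, 281, 324 and 238 reads and its Y-linked copy Eif2s3y 298, 373, 519 and 453, so Y-linked reads were present in every pool. Eif2s3y made up 57% to 81.4% of the reads of that pair.

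The 4 kinases of eIF2 alpha had a summed level of 63.4 to 118.6 CPM, and their reads ranged from 0 to 541. Eif2ak1, which senses haem, had 332, 69, 243 and 541 reads. Eif2ak4, which senses uncharged tRNA, had 0, 254, 37 and 254 reads and was higher in ES on both days. At 11 DIV the difference was 82.8-fold if the control library is set to 3 reads, and the counting interval began at 66.8. At 19 DIV it was 5.93-fold. The spread-adjusted interval spanned equality each time. Eif2ak3, which senses endoplasmic reticulum stress, had 28, 76, 263 and 129 reads, and Eif2ak2, which senses double-stranded RNA, 7, 0, 138 and 23. The highest library was a different one for Eif2ak1 (ES 19 DIV), Eif2ak4 (ES 11 DIV) and the other two (control 19 DIV). The 5 eIF2B genes, whose product recharges eIF2 with GTP, summed to 294.7, 163.1, 198.7 and 97.7 CPM. Of these, 4 of 5 were lower in ES on each day, not the same 4. Of the 11665 genes averaging 10 reads or more, 5505 were lower at 11 DIV and 5553 at 19 DIV. The ratios of the eIF2B sums were 0.553 (0.136 to 1.95) and 0.491 (0.0870 to 2.24).

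Eif3h, a subunit of the eIF3 scaffold, was the member called by the spread-adjusted rule. It lies on chromosome 15 at 51786558 to 51865523, minus strand, and had 218.2, 361.8, 169.2 and 10.5 CPM. ES 19 DIV stood far below the other 3 libraries. It was 34.4-fold lower than ES 11 DIV, and the upper end of the spread-adjusted 95% interval of the ratio was 0.499. Against control 19 DIV it was 16.1-fold lower, with an upper end of 1.18. edgeR's quasi-likelihood test gave an unadjusted p of 0.0847 and an adjusted p of 1 for day. Sensory neuron markers were also lowest in ES 19 DIV, with a ratio of 0.370 (0.253 to 0.535) to ES 11 DIV, and their part in the value of Eif3h was not tested.

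ES 19 DIV was the lowest library for 8 of the 14 eIF3 genes, Eif3h included. It was also lowest for 4 of the 5 eIF2B genes. In the group of eIF1, eIF1A, eIF5, eIF5B and eIF6 it was lowest for 3 of 7, and in the eIF4 group for 2 of 11. It was lowest for Eef2, 1 of 2 eIF5A genes and 1 of 4 eIF2 genes. No eEF1 gene, eIF2 kinase gene or eIF4E-binding inhibitor gene was lowest there. The share of all genes that were lowest in ES 19 DIV was not counted, so these counts cannot be read as a pattern. Eif3a, the large core subunit, had 684.1, 396.9, 581.7 and 752.4 CPM and was highest in ES 19 DIV. Eif3c, also of the core, had 427.4, 200.4, 245.5 and 251.2 CPM, a ratio of 0.469 (0.140 to 1.37) between ES and control at 11 DIV. Eif3l had 643, 1094, 303 and 84 reads and was lower at 19 DIV in both treatments, by 2.53-fold in control and 17.6-fold in ES cultures, with intervals that spanned equality. For day, DESeq2 gave Eif3l an adjusted p of 0.0229 and edgeR's quasi-likelihood test an adjusted p of 1. Eif3i had 98.4, 171.3, 240.1 and 82.5 CPM and Eif3k 88.9, 222.3, 179.3 and 68.8 CPM, both low in control 11 DIV and ES 19 DIV. From 11 to 19 DIV in ES cultures, 10 of the 14 eIF3 genes were below equality, against 5419 of the 11665 genes averaging 10 reads or more. Past the size rule, 7 eIF3 genes were lower and 1 higher (all genes 30.5% and 30.9%). The ratio of the eIF3 sums was 0.742 (0.497 to 1.11).

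Of the genes of the cap-binding complex, the scaffold relative Eif4g2, which lacks the eIF4E site, had 1159, 1034, 1136 and 844 CPM. Eif4g1, the main scaffold, had 332.0, 242.6, 208.6 and 322.7 CPM. The helicase genes Eif4a1 and Eif4a2 had 232.0, 265.9, 161.0 and 209.4 CPM and 205.4, 83.4, 194.5 and 148.9 CPM. No ratio of Eif4g1, Eif4g2, Eif4a1 or Eif4a2 had an interval that excluded equality. Eif4a2 overlaps Rfc4 and small nucleolar RNA genes, and made up 47%, 23.9%, 54.7% and 41.6% of the reads of its pair with Eif4a1.

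Eif4g3, the third scaffold gene, had 251.9, 120.9, 485.3 and 244.8 CPM. It was lower in ES than in control on both days, with ratios of 0.480 (0.0911 to 1.99) and 0.505 (0.187 to 1.27), and higher at 19 than at 11 DIV in both treatments, with ratios of 1.93 and 2.03. DESeq2 gave adjusted p values of 0.0239 for ES and 0.0178 for day. edgeR's quasi-likelihood test gave log2 changes of −1.02 and 0.98 with unadjusted p values of 0.0581 and 0.0666, and an adjusted p of 1 for both.

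Eif4e, the cap-binding protein itself, had 998, 119, 65 and 600 reads (172.3, 20.1, 9.43 and 75.1 CPM). Control 11 DIV and ES 19 DIV were high and ES 11 DIV and control 19 DIV low. The ES library was thus 8.58-fold lower than control at 11 DIV and 7.97-fold higher at 19 DIV. Both differences passed the size rule and neither interval excluded equality after adjustment for the spread.

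Between ES and control at 19 DIV, the member furthest from equality by the nearer end of its spread-adjusted interval was a 4E-BP gene. Eif4ebp1 (chromosome 8, 27260329 to 27276674, plus strand) encodes a cap-dependent translation inhibitor that mTORC1 switches off. It had 1080, 899, 229 and 2467 reads (186.4, 151.8, 33.2 and 308.9 CPM). Control 19 DIV was the lowest library and ES 19 DIV the highest, a ratio of 9.30 (1.32 to 435.7) that passed the size rule but not the spread-adjusted rule. At 11 DIV the ratio was 0.814 (0.172 to 3.61). Eif4ebp2, the form abundant in brain, had 38, 378, 172 and 890 reads and was higher in ES on both days, by 9.73-fold and 4.47-fold, with intervals that spanned equality. DESeq2 gave Eif4ebp2 an adjusted p of 0.0274 for ES, and edgeR's quasi-likelihood test a log2 change of 2.72 with an adjusted p of 1. Eif4ebp3 had 122, 134, 0 and 185 reads. With Eif4enif1, which carries eIF4E into the nucleus, the 4 genes summed to 214.1, 288.8, 104.6 and 508.7 CPM. All 4 were higher in ES than in control at 19 DIV, against 5232 of the 11665 genes averaging 10 reads or more. Of the 4, 3 were past the size rule (all genes 29.4%), and the ratio of the sums was 4.86 (1.42 to 25.3). Eif4ebp1 gave 33.2 of the control and 308.9 of the ES value. Neuron markers had a ratio of 0.376 (0.263 to 0.529) and fibroblast markers 1.37 (1.18 to 1.61) in the same comparison, and their part was not tested.

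The other steps of translation gave fewer reads. The 8 termination and recycling genes, led by Denr (1729, 592, 1333 and 813 reads) and Gspt1 (263, 1091, 566 and 953 reads), had 1 gene higher and 5 lower past the size rule between ES and control at 11 DIV (all genes 28.9% and 29.6%), a median log2 difference of −1.59 and a ratio of the sums of 0.597 (0.285 to 1.21). The 7 genes of poly(A)-binding protein and its partners had a ratio of 0.640 (0.414 to 0.980) in that comparison, or 0.702 (0.450 to 1.08) under total-count scaling, with Pabpc1 at 1514, 1030, 1116 and 893 CPM and Paip2 at 205.9, 87.3, 147.4 and 152.4 CPM. Of the 14 regulators of initiation and elongation, including the helicase gene Ddx3x (445.4, 290.9, 280.9 and 314.2 CPM) and the eIF2 phosphatase subunit gene Ppp1r15b (148.1, 187.4, 115.8 and 133.5 CPM), 5 were higher and 6 lower past the size rule at 11 DIV, and 5 higher and 3 lower at 19 DIV (all genes 29.4% and 31.3%). The 8 mitochondrial translation factor genes had 5 higher and 1 lower at 19 DIV, against the same shares of all genes, with Tufm at 161, 62, 57 and 902 reads and Mtif2 at 70, 117, 296 and 295 reads. Their ratio of 3.90 (0.826 to 35.5) did not exclude equality. Among these 4 lists no gene passed the spread-adjusted rule in any of the 4 comparisons.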

How the data were processed

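The authors deposited 1 table of unnormalized whole-number read counts for each library, with the same 23282 rows in each. The library kit was Lexogen Quant-Seq with 500 ng of input RNA, per the labels' protocols, and mm10, Bowtie2 and bedtools are listed without roles or versions, per the submitters' processing notes. The sources used here do not give versions, duplicate handling or strand use. Positions came from GENCODE M21 (GRCm38), where all 64 symbols occurred, 14 of them with exons that overlap another listed gene.

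Effective library sizes used TMM (edgeR 4.0.16, R 4.3.3); the factors were computed over all rows. Intervals, rules and thresholds are given where first used; log2 differences used a prior count of 2. The additive fit used filterByExpr; DESeq2 1.42.0 and limma 3.58.1 were alternatives, with other scalings, minimums, folds and thinning. Intervals came from scipy 1.17.1 under Python 3.11.15, and figures from matplotlib 3.10.9. The rules and the fit were also run on simulated counts set to scatter less than these data. That run does not check them at the spread seen here, and its outcome is not reported.

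The members, lists and rules were chosen with earlier results of these data known. Values in every library are given for the 6 initiation and 4 elongation members with the highest mean CPM, members past the spread-adjusted rule, up to 2 members per direction, comparison and family furthest from equality among those past the size rule, and a fixed set of well-known factors. Per companion list the 2 genes with the most reads and those past the spread-adjusted rule are named. Genes named beyond this are said to be so or serve a pair, an overlap or a marker check. Marker genes are given mainly within their list sums, and some are not reported here.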

Additional observations from a re-analysis of the deposited data

Results flagged for a closer look

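Some members passed the size rule in opposite directions under the same contrast. Between ES and control, 7 of 58 members that could be called at both 11 and 19 DIV did so (12.1%), against 18.6% of 8460 genes. The log2 difference at 19 DIV minus that at 11 DIV was −6.81 for Eef2kmt, 4.41 for Eif2b5, 6.04 for Eif4e, −7.21 for Eif2b3, −2.58 for Eif2ak3, −5.14 for Eif4e3 and −2.70 for Eif3k. Between 19 and 11 DIV, 8 of 58 members did so in control and ES cultures (13.8%), against 17.6% of 8508 genes. The log2 difference in ES minus that in control was −6.81 for Eef2kmt, 6.04 for Eif4e, −7.21 for Eif2b3, −2.34 for Eif3i, −5.14 for Eif4e3, −2.70 for Eif3k, −3.08 for Eef2k and 3.50 for Eif4ebp1. Both sets use the same 4 libraries, so a gene's value is the same in each. With 1 library per group the differences between contrasts were not tested.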

How the results depend on the processing

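Of 182 alternative values of the summed results, 170 kept their call or, for medians, stayed within the interval of the median or, for counts, within 1.5 times. No sum whose interval excluded equality changed direction. Of the 120 for sums and medians, 5 lay on the other side of equality, all of them of elongation factor values close to it: the sum between ES and control at 19 DIV (0.996) became 1.01 with upper-quartile scaling, 1.04 with core factors only, 1.13 without its most abundant member and 1.03 with the Eif5a genes, and the fifth was the median given below. Scaling by total counts raised all ratios to control 11 DIV by 0.13 on the log2 scale and ended the 3 family sums whose intervals excluded equality: initiation at 11 DIV, ES against control, 0.896, and from 11 to 19 DIV in control cultures initiation 0.887 and elongation 0.813. Of the smaller sums, under this scaling, added after seeing the data, poly(A)-binding genes (0.702) and members outside the TOP list (0.908) at 11 DIV also lost it, while the eEF1 genes (0.621) and TOP members (0.788) from 11 to 19 DIV in control cultures and the 4 eIF4E-binding inhibitors at 19 DIV (4.84) kept it. Members past the size rule numbered 21, 26, 30 and 23 in the 4 comparisons (ES against control at 11 and 19 DIV, then 19 against 11 DIV in control and ES). With a minimum of 500 reads they numbered 8, 13, 17 and 12, since fewer genes reach it, and at 1.5-fold 34 and 41 between ES and control at 11 and 19 DIV. A 95% interval in the spread-adjusted rule called 2 members at 19 DIV, Eef2kmt and Eif4ebp1, where the 99% interval called 0. DESeq2 called 2 members for ES and 3 for day, where edgeR called 0; the cause was not tested. The median of the elongation factors between ES and control at 11 DIV was 0.01 and, over the 5 genes averaging 500 reads or more, −0.18. Of 924 values of single members under other scalings, 915 kept their call, 8 lost it and 1 gained it. A spread factor from genes of 1000 to 10000 reads, added for the sums after seeing the data, changed no call. Leaving out a library removes a whole group and was not run. No paired analysis was possible because each group is 1 library and the labels give no replicate numbers.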
